A study of Sus scrofa with 6 samples.

Results

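The genes described here are 10 regulators of multiciliogenesis, the process by which an epithelial cell builds a tuft of beating cilia: FOXJ1, RFX2, RFX3, GMNC, MCIDAS, MYB, TP73, CCNO, FOXN4 and DEUP1. They were found by symbol among the 17670 pig Ensembl gene identifiers of the deposited count table, and 9 of the 10 had a row. FOXN4, a forkhead factor of multiciliated progenitors, was not matched to a row and was not analysed here. Of the 9, 8 had enough reads to enter the fit over the whole table, and MCIDAS did not. The set was chosen by name with the fold changes between AA2P and control cells already known, so the members count as selected on these same counts, and their values are given as a description without p-values.

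The cells were immature Sertoli cells, which nurse germ cells inside the seminiferous tubule, taken from pig testis at 80 to 90 days of gestation and cultured. The treated group received AA2P (the magnesium salt of L-ascorbic acid 2-phosphate, used as a long-lived vitamin C source) at 250 µM after 6 h of culture. The other group is labelled only as control, and both groups are described with the same serum-containing medium. Each group had 3 libraries. The labels do not say whether the libraries came from separate cultures or animals, whether fetuses were pooled or how long AA2P was present, so the spread between libraries may be technical.

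In multiciliated epithelia of the airway, oviduct and efferent ducts, the coiled-coil proteins GMNC (also called GEMC1) and MCIDAS (multicilin) bind E2F4 or E2F5 with a DP partner and start the programme. Downstream of them act the transcription factors TP73, MYB, FOXJ1, RFX2 and RFX3, and the centriole factors CCNO and DEUP1, the latter at the deuterosomes where centrioles are made in bulk. FOXJ1 and the RFX factors also serve cells with a single motile cilium, and RFX3 serves primary cilia, so these genes are not specific to multiciliated cells.

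Library totals ran from 18747307 to 23521291 reads assigned to genes, and 3 reads, the most that a count of 0 allows, corresponded to 0.123 to 0.165 CPM (counts scaled to library size and TMM factor; this limit covers counting error only). The first principal component held 84.4% of the variance and separated the groups, and AA2P library 3 lay nearest the controls. Of the 12701 genes tested by edgeR's quasi-likelihood test, 52.1% were called at an adjusted p of 0.05, with 26.0% of them all being higher in AA2P cells and 26.1% lower. In bulk RNA, fewer cells of a type and less RNA per cell cannot be told apart.

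The labelled cell type was checked against 18 Sertoli cell markers, of which 11 had a row. AMH, the anti-Müllerian hormone of immature Sertoli cells, was present at 36.4 ± 1.52 CPM in control and 34.4 ± 2.35 CPM in AA2P cells (SD, n = 3). The markers DHH, INHA and NR5A1 were nearly absent, with at most 3, 1 and 5 reads in any library. WT1 was present at 40.7 ± 4.21 CPM in control and 23.8 ± 4.20 CPM in AA2P cells, and INHBB at 5.33 ± 0.130 and 3.04 ± 0.570 CPM. Both were called lower and were named after their values were seen, while 1 of the 8 tested markers was called higher. SOX9, a transcription factor of Sertoli cell fate, fell 5.20-fold, from 11.6 ± 0.647 to 2.22 ± 0.459 CPM (edgeR's quasi-likelihood test, Benjamini-Hochberg adjusted p = 9.9e-10).

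FOXJ1, RFX2 and RFX3, the factors that switch on genes of the ciliary axoneme, were well measured and higher with AA2P in every library. GMNC and MCIDAS, at the top of the cascade, had 0 to 6 reads in any control library and 8 to 26 with AA2P. CCNO was also low in control cells and higher with AA2P, TP73 and MYB differed by 1.26-fold and 1.17-fold, and DEUP1 overlapped between the groups. Of the 8 tested members 6 were called higher and none lower, against 26.0% of all tested genes called higher, and 4 were called at least 2-fold higher, against 5.53%. In 8 of the 9 measured members the groups did not overlap, with AA2P higher in each; over all tested genes 59.3% did not overlap and 29.8% did so with AA2P higher. GMNC and CCNO entered the fit only through their AA2P libraries, and because this comparison chose the members, nothing is read from these counts.

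**Figure D1:**
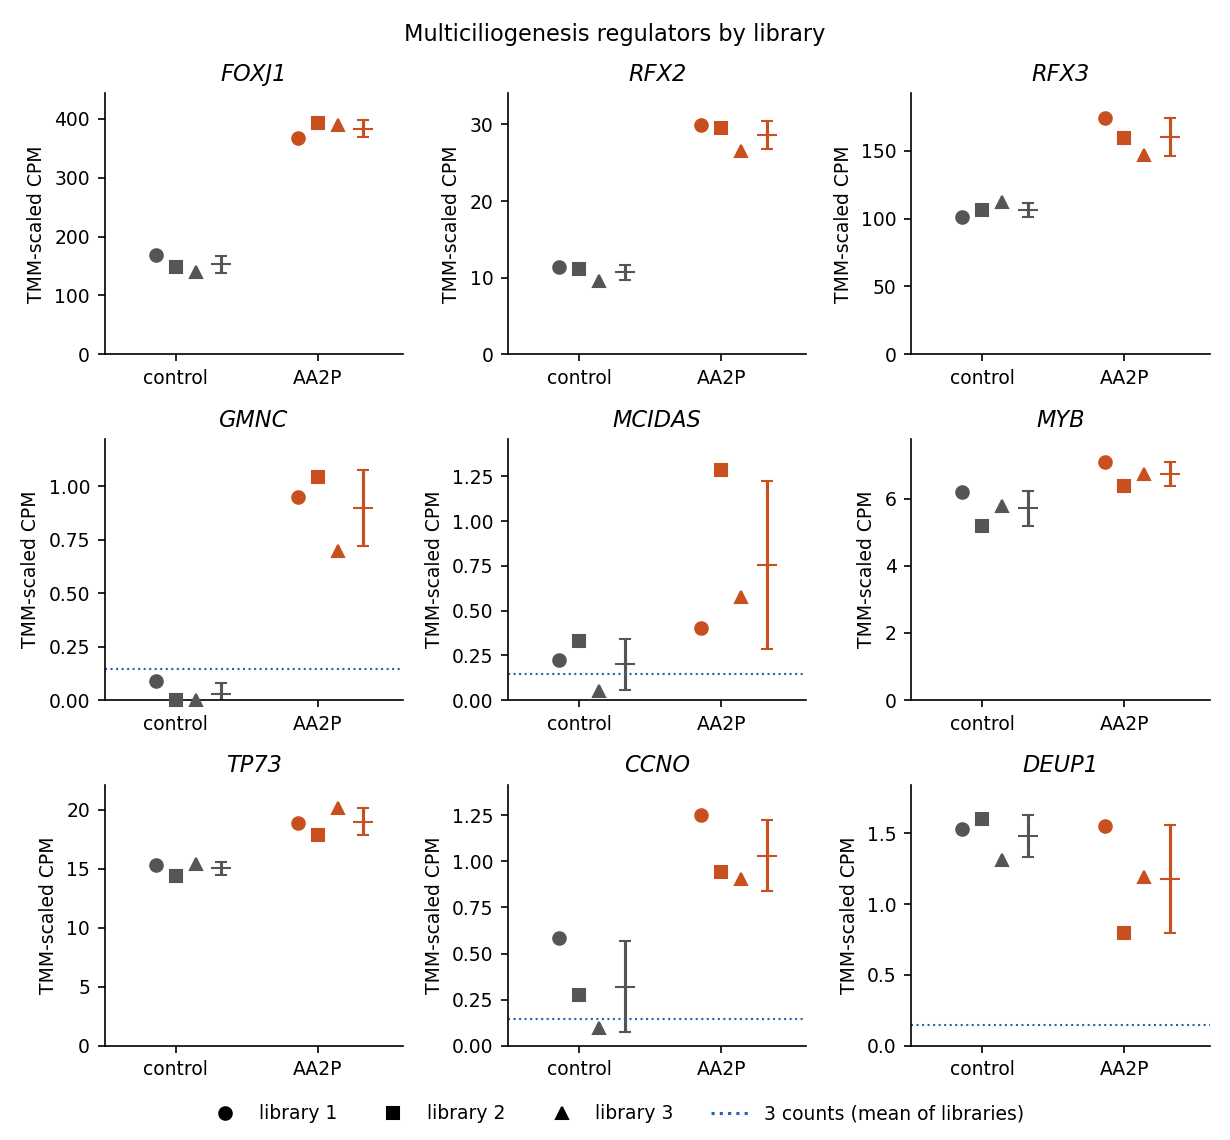
Expression of the 9 measured regulators in each library, as TMM-scaled CPM on linear axes that start at 0; symbols are libraries 1 to 3 of each group, and the bars are the mean ± SD of 3 libraries. The dotted line in the low panels is the level of 3 reads averaged over libraries; FOXJ1, RFX2 and RFX3 lie far above it, GMNC lies below it in all 3 control libraries, and the groups overlap in the DEUP1 panel alone.

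FOXJ1 (ENSSSCG00000017187), the forkhead master regulator of motile cilia, was already expressed in control cells. It stood at 169, 149 and 140 CPM in control libraries 1 to 3 and at 367, 392 and 390 CPM in AA2P libraries 1 to 3. The groups were far apart: the lowest AA2P library was 2.17 times the highest control library. The fitted difference was 2.51-fold, or a log2 fold change of 1.33 with a standard error of 0.06, and it rested on 2706 to 3755 reads per control library and 7329 to 9504 per AA2P library. AA2P library 3, the one nearest the controls across all genes, was not the lowest for FOXJ1.

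RFX2 (ENSSSCG00000035403), an X-box binding factor that works with FOXJ1 on motile cilium genes, had 11.4, 11.1 and 9.56 CPM in control cells. With AA2P it had 29.9, 29.5 and 26.6 CPM. The fitted fold was 2.67 (log2 1.42, standard error 0.09), close to that of FOXJ1. RFX3 (ENSSSCG00000005225), its relative that also acts in primary cilia and the nodal cilium, had 101, 106 and 112 CPM in control and 174, 159 and 147 CPM in AA2P libraries. Its groups did not overlap either, but the difference was smaller, 1.50-fold (log2 0.59, standard error 0.06). For both RFX genes AA2P library 3 was the lowest of its group.

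GMNC (ENSSSCG00000024420), which initiates the cascade, was the member nearest the floor. The control libraries held 2, 0 and 0 reads and the AA2P libraries 19, 21 and 17. All reads of the control group thus came from control library 1, at 0.0901 CPM and under the level of 3 reads, while the AA2P libraries stood at 0.951, 1.04 and 0.698 CPM. The summed counts, 57 against 2, gave a ratio of 26.9 after scaling, with a 95% interval of 7.12 to 228 (exact Clopper-Pearson on the share of reads; counting error only). The fitted log2 fold change of 4.52 (standard error 0.65) depends on the prior count and is no bound; without control library 1 it was 7.20, against controls with no read.

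MCIDAS (ENSSSCG00000036183) had 5, 6 and 1 reads in control libraries and 8, 26 and 14 in AA2P libraries. On the CPM scale the controls lay between 0.0485 and 0.331 and the AA2P libraries between 0.400 and 1.29, so the groups did not overlap by a narrow margin. AA2P library 2 alone held 26 of the 48 AA2P reads. The ratio of summed counts was 3.78 (exact 95% interval 1.98 to 7.82, counting error only), and 2.52 without AA2P library 2. CCNO (ENSSSCG00000026849), a cyclin-like protein needed for centriole amplification, had 13, 5 and 2 reads in control and 25, 19 and 22 in AA2P libraries. Its ratio was 3.12 (exact 95% interval 1.87 to 5.43), and control library 1, with 13 of the group's 20 reads, set much of the control level. Without that library its fitted log2 fold change was 2.46 in place of 1.63.

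MCIDAS and CCNO are neighbours in the RefSeq annotation of the pig genome (Sscrofa11.1), where they are adjacent. The nearest genes on either side did not share their direction: GPX8, an endoplasmic reticulum peroxidase, fell with a log2 fold change of -0.41, and DHX29, a translation initiation helicase, fell with one of -0.31. GMNC lies between IL1RAP, an interleukin receptor chain with a log2 fold change of -0.13, and OSTN, which was too low to be tested. Beside FOXJ1, EXOC7 rose with a log2 fold change of 0.22 and RNF157 stood at 0.226 and 0.489 CPM in control and AA2P cells. These neighbours were looked up after the members' values were known.

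TP73 (ENSSSCG00000025685), a transcription factor essential for multiciliated cells in the airway, was at 15.3, 14.4 and 15.4 CPM in control and 18.9, 17.9 and 20.2 CPM in AA2P libraries. The groups were separate but close, with a fitted fold of 1.26 (log2 0.34, standard error 0.08). MYB (ENSSSCG00000004167), which drives early steps of the same programme and is better known from blood progenitors, was at 6.22, 5.18 and 5.77 CPM in control and 7.11, 6.39 and 6.73 CPM in AA2P libraries. Its fold of 1.17 (log2 0.23, standard error 0.12) was not called with TMM scaling, and scaling by library totals instead of TMM called it at a log2 fold change of 0.40. That scaling moved the median of all tested genes by 0.17, so changes are given relative to TMM scaling.

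DEUP1 (ENSSSCG00000014943), the deuterosome protein, was the one measured member whose groups overlapped. It had 34, 29 and 27 reads in control and 31, 16 and 29 in AA2P libraries, or 1.48 ± 0.151 and 1.18 ± 0.380 CPM (SD, n = 3). The ratio of summed counts was 0.798, with an exact 95% interval of 0.580 to 1.09 that covers counting error only. In RefSeq its span overlaps the amino acid transporter gene SLC36A4, a pseudogene and a long noncoding RNA, so its reads are uncertain where the counting ignored strand. No other member overlapped an annotated gene there.

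**Figure D2:**
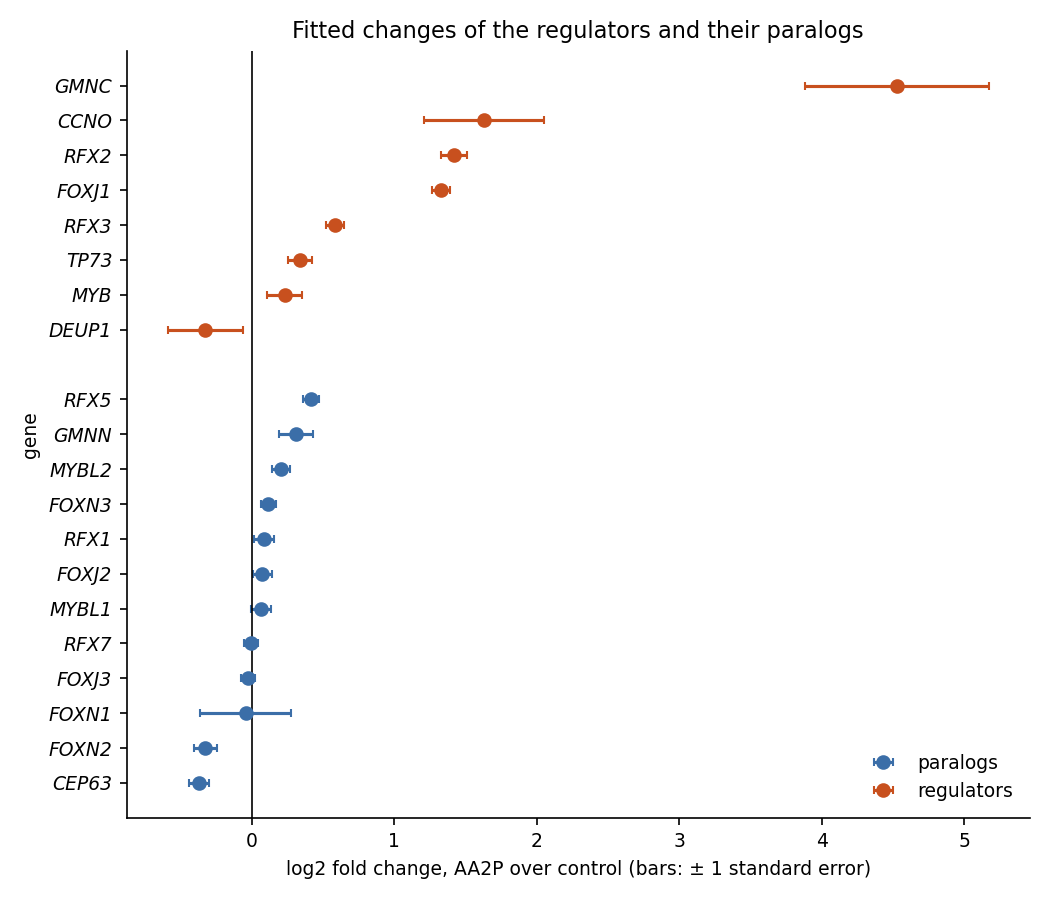
Fitted log2 fold changes, AA2P over control, with bars of ± 1 standard error, for the 8 tested regulators (upper block) and 12 of the tested paralogs (lower block). GMNC and CCNO have the widest bars among the regulators, 0.65 and 0.42, while the paralogs shown lie between -0.37 for CEP63 and 0.42 for RFX5.

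Family relatives of the regulators went both ways. Of 13 tested paralogs 3 rose and 3 fell, which is 46.2% against 52.1% of all tested genes, and their median log2 fold change was 0.06 against -0.00 over all tested genes. With library totals 9 rose and 2 fell. RFX5, the RFX factor of antigen presentation genes, rose from 62.6 ± 2.68 to 83.5 ± 1.15 CPM (SD, n = 3), and RFX1 and RFX7 were not called. TP63, a relative of TP73, had at most 1 read in any library. CEP63, the paralog of DEUP1 that serves ordinary centriole duplication, fell 1.29-fold to 30.9 ± 0.350 CPM. The adjusted p-values of RFX5 and CEP63 were 7.2e-06 and 0.000249 by edgeR's quasi-likelihood test.

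The DNA-binding partners of GMNC and MCIDAS were abundant enough to measure in both groups. E2F4 stood at 41.3 ± 1.31 CPM in control and 41.2 ± 4.70 CPM in AA2P cells (SD, n = 3), with a fitted log2 change of -0.00 (standard error 0.08), and E2F5 at 45.2 ± 4.39 and 41.4 ± 2.62 CPM. Neither was called. Among 11 tested genes of E2F factors, DP partners, pocket proteins, CDT1 and geminin, 7 rose and 1 fell, which is 72.7% called against 52.1% of all tested genes, with a median log2 fold change of 0.22. TFDP2, a DP partner, rose 1.70-fold from 89.8 ± 2.75 to 152 ± 11.9 CPM, while TFDP1 was the 1 called lower, with a log2 fold change of -0.16 (adjusted p = 0.0386 by edgeR's quasi-likelihood test). No gene of this list was called lower with library totals (8 higher), no filter, the DESeq2 Wald test, the replicate block, an adjusted p of 0.01, or without control library 1 or 2 or AA2P library 1 or 2. The cell cycle activators E2F2 and E2F1 rose 2.58-fold and 1.41-fold (adjusted p = 4.8e-08 and 3.7e-05 by edgeR's quasi-likelihood test, against 1.9e-08 for TFDP2).

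Genes of motile cilia, many of them known targets of FOXJ1 and RFX factors in other tissues, were mostly higher with AA2P. Of 80 genes on the list 62 had a row and 56 were tested, of which 51 rose and 1 fell, so 92.9% were called against 52.1% of all tested genes. Their median log2 fold change was 0.93 against -0.00 over all tested genes. Of the 56, 25 were called at least 2-fold higher, against 5.53% of all tested genes. The 1 that fell was DNAAF4, a dynein assembly factor, at 9.77 ± 1.14 and 7.38 ± 0.214 CPM (SD, n = 3; named after its value was seen). DNAI1 and CFAP43 of the list entered the fit only through their AA2P libraries. This list and the others were chosen with earlier results of these data known. Their counts and p-values are therefore a description, not a test of the list. Binding of FOXJ1 or RFX factors was not measured in this series.

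**Figure D3:**
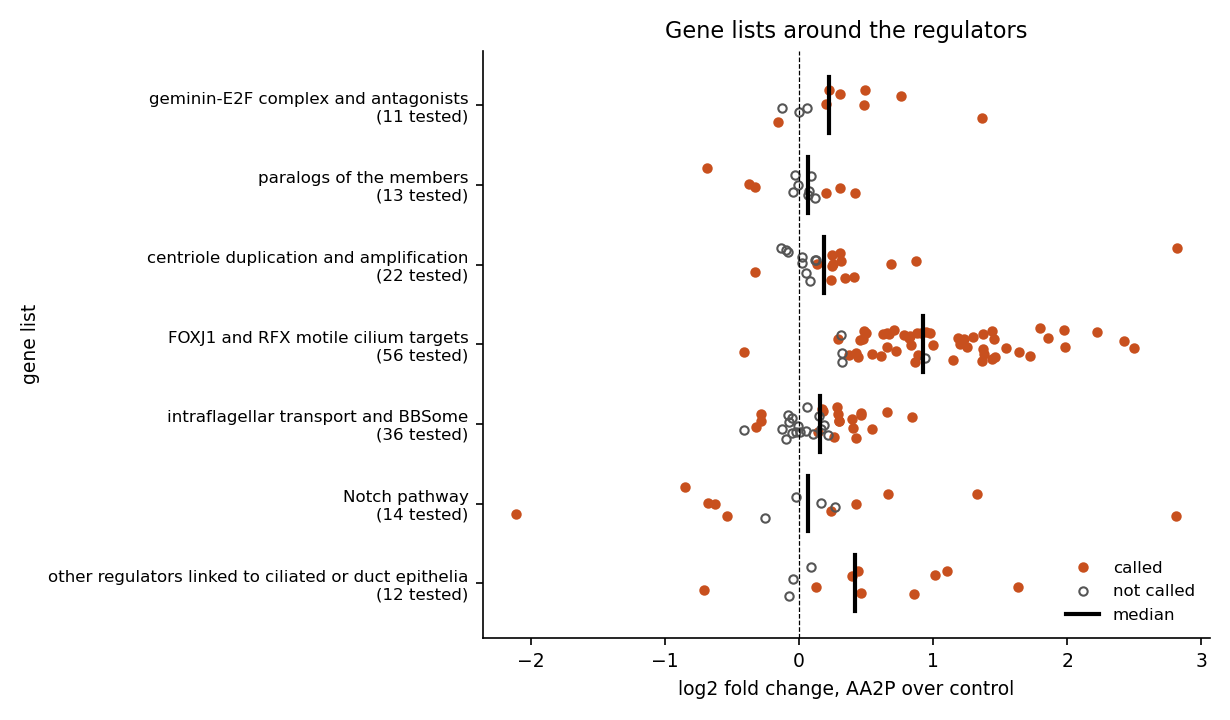
Log2 fold change, AA2P over control, of each tested gene in 7 lists around the regulators; filled points passed an adjusted p of 0.05, open points did not, and the black bar is the median of the list. The motile cilium list has its median at 0.93, the other lists between 0.06 and 0.42.

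Each structural class on the list held genes that rose, where 26.0% of all tested genes were called higher. All 7 tested axonemal dynein heavy chains rose, from 1.36-fold for DNAH5 of the outer arm to 3.93-fold for DNAH7 of the inner arm, and all 4 tested dynein intermediate chain genes rose, from 2.58-fold to 5.38-fold. DNAI2, an outer arm intermediate chain, went from 2.05 ± 0.188 to 11.1 ± 1.11 CPM (SD, n = 3). Of 3 radial spoke genes 2 rose, and RSPH4A, a spoke head protein, rose 5.66-fold from 2.74 ± 0.716 to 15.8 ± 3.96 CPM. RSPH9, its partner in the spoke head, was at 0.450 ± 0.122 and 0.551 ± 0.137 CPM.

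All 11 tested genes of the CFAP series rose (26.0% of all tested genes were called higher), between 1.30-fold for CFAP100 and 4.66-fold for CFAP44. CFAP44, which tethers the inner arm dynein f, rose from 10.3 ± 0.437 to 48.2 ± 2.74 CPM (SD, n = 3) and had the smallest p of the list. DNAH12, an inner arm heavy chain, rose 2.74-fold to 117 ± 13.6 CPM, and ZMYND10, a factor for assembling dynein arms in the cytoplasm, rose 2.38-fold to 67.7 ± 4.88 CPM. The adjusted p-values of CFAP44, DNAH12, ZMYND10, DNAI2 and RSPH4A were 2.7e-12, 1.3e-10, 2.0e-10, 6.7e-10 and 2.2e-08 by edgeR's quasi-likelihood test.

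Some genes of the same structures were at or near the floor in both groups. The outer arm heavy chains DNAH9 and DNAH11 had at most 1 and 6 reads in any library, and the tektin TEKT2 at most 1. TEKT1, another tektin, rose 2.92-fold from 4.33 ± 0.268 to 12.7 ± 2.06 CPM (SD, n = 3; adjusted p = 8.5e-08 by edgeR's quasi-likelihood test). DNAH9, DNAH11, TEKT2 and RSPH9 were named after their values were seen.

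Genes for making centrioles had a smaller median change. Of 22 tested genes 12 rose and 1 fell, which is 59.1% called against 52.1% of all tested genes and 54.5% higher against 26.0%. Their median log2 fold change was 0.19. Without control library 2 the count was 7 higher and 1 lower, and with library totals 18 higher and none lower. CETN2, a centrin of the centriole lumen, rose 1.83-fold from 60.9 ± 2.88 to 111 ± 6.92 CPM (SD, n = 3), CEP164 of the distal appendages rose 1.61-fold to 135 ± 2.98 CPM, and CEP135 of the cartwheel rose 1.33-fold. Their adjusted p-values were 4.0e-09, 6.0e-09 and 1.4e-05 by edgeR's quasi-likelihood test. CCDC78, a deuterosome protein that works beside DEUP1, had 1, 3 and 2 reads in control and 16, 18 and 13 in AA2P libraries. CCDC78 was called higher but entered the fit only through its AA2P libraries, and it was named after its values were seen. The core duplication genes STIL and SASS6 were at 37.3 and 47.4 CPM in control and 44.5 and 49.3 CPM in AA2P cells, and of these STIL was called.

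Intraflagellar transport and BBSome genes, which build and maintain all cilia, had a smaller median than the axonemal genes. Of 36 tested genes 16 rose and 3 fell, which is 52.8% called against 52.1% of all tested genes and 44.4% higher against 26.0%. Their median log2 fold change was 0.16, and with library totals 25 rose and 1 fell. DYNC2LI1, a chain of the retrograde transport motor, rose 1.79-fold from 85.3 ± 3.57 to 153 ± 18.0 CPM (SD, n = 3). IFT46 and IFT56, of the anterograde complex, rose 1.58-fold and 1.46-fold. The adjusted p-values of DYNC2LI1, IFT46 and IFT56 were 5.4e-08, 1.5e-06 and 2.1e-06 by edgeR's quasi-likelihood test. The difference in median between this list and the motile cilium list was not tested.

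Notch signalling holds multiciliated fate back in other epithelia, and its genes moved in both directions. Of 14 tested genes 5 rose and 5 fell, which is 71.4% called against 52.1% of all tested genes, with a median log2 fold change of 0.07. Without control library 2, control library 3 or AA2P library 2, 3 rose and 5 fell. The receptors NOTCH2 and NOTCH3 fell 1.45-fold and 1.80-fold, to 631 ± 31.5 and 21.6 ± 1.46 CPM, and the ligand JAG1 fell 1.60-fold from 469 ± 4.75 to 293 ± 8.28 CPM (SD, n = 3). Another ligand, JAG2, went the other way, from 17.5 ± 0.915 to 27.8 ± 2.57 CPM. HEYL, a target gene of the pathway, rose from 0.160 ± 0.0589 to 1.21 ± 0.427 CPM, and the glycosyltransferase MFNG rose 2.51-fold to 1.04 ± 0.168 CPM, both on few reads. The adjusted p-values of JAG1, NOTCH3 and NOTCH2 were 3.9e-09, 4.2e-08 and 1.2e-07 by edgeR's quasi-likelihood test. HEYL and MFNG were called but entered the fit only through their AA2P libraries, so no p-value is given for them. The targets HES1 and HEY2 were lower, HES1 at 56.3 ± 2.74 CPM in control and 36.6 ± 1.60 CPM in AA2P cells and HEY2 at 0.828 ± 0.143 and 0.187 ± 0.101 CPM. JAG2 and HES1 were called (adjusted p = 6.3e-06 and 3.7e-07 by edgeR's quasi-likelihood test). HEY2 was called too but entered the fit only through its control libraries. JAG2, HES1 and HEY2 were named after their values were seen.

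Among other transcription factors and genes tied to ciliated or duct epithelia, 8 of 12 tested rose and 1 fell. That is 75% called against 52.1% of all tested genes and 66.7% higher against 26.0%, with a median log2 fold change of 0.42. FOXA1, a pioneer forkhead factor of epithelia, rose 2.16-fold from 33.1 ± 0.127 to 71.4 ± 2.92 CPM (SD, n = 3). Its adjusted p was 2.0e-10 by edgeR's quasi-likelihood test. The gene that fell was EMX2, a homeobox factor of the urogenital ducts, at 38.0 ± 2.38 and 23.2 ± 3.24 CPM, named after its value was seen.

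Markers of other cells that a testis culture could hold were read from the same libraries. Of 14 multiciliated cell markers 9 had a row, 8 of these are also on the motile cilium list, and 7 of 8 tested rose (87.5% against 26.0% of all tested genes), with a summed level of 54.1 to 57.3 CPM in control and 102 to 124 CPM in AA2P libraries. TPPP3, a tubulin-binding protein of ciliated cells, rose 1.77-fold to 61.3 ± 8.11 CPM (SD, n = 3; adjusted p = 2.8e-07 by edgeR's quasi-likelihood test), and was the most abundant of them. CDHR3, the cadherin of airway multiciliated cells, had at most 4 reads in any library. Of 11 efferent duct and rete testis markers 5 rose and 5 fell (90.9% called against 52.1% of all tested genes). The sum of this list, most of it KRT8, WFDC2 and KRT7, went from 2296 to 2541 CPM in control to 1814 to 2045 CPM in AA2P libraries. CDH16, a kidney and duct cadherin, rose 2.28-fold to 75.4 ± 5.39 CPM, while EPCAM and KRT8, general epithelial genes, fell 2.01-fold and 1.55-fold. The largest differences of the list were those of the sodium-proton exchanger SLC9A3, from 0.273 ± 0.115 to 3.67 ± 0.989 CPM, and the oestrogen receptor ESR1, from 0.378 ± 0.117 to 1.94 ± 0.293 CPM. Both entered the fit only through their AA2P libraries, so no p-value is given. Of the genes that fell, CFTR had the largest difference, from 1.81 ± 0.382 to 0.485 ± 0.0704 CPM. WFDC2 fell from 641 ± 40.4 to 539 ± 33.9 CPM. SLC9A3, ESR1, CFTR and WFDC2 were named after their values were seen.

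The Sertoli list summed to 4753 to 5077 CPM in control and 1581 to 2160 CPM in AA2P libraries, with 6 of 8 tested genes lower and 1 higher (87.5% called against 52.1% of all tested genes), and CLU, a secreted chaperone, made up most of it at 4228 ± 168 and 1301 ± 266 CPM (SD, n = 3). KRT18 of the same list fell 1.71-fold. Stromal markers, most of them COL1A2, went from 12360 to 13235 CPM in control to 8430 to 9097 CPM with AA2P, where COL1A2 and COL1A1 fell and NR2F2 rose 2.02-fold, while PDGFRB had at most 1 read. The smooth muscle list went from 416 to 423 CPM in control to 295 to 346 CPM with AA2P. Of its 5 tested genes 3 were lower and 1 higher (80% called against 52.1% of all tested genes). DES fell 4.64-fold, ACTG2 2.35-fold and TAGLN 1.22-fold, and TAGLN lost its call with library totals (adjusted p = 0.0723 by edgeR's quasi-likelihood test). CNN1, the smooth muscle gene that rose, went from 0.595 ± 0.139 to 1.17 ± 0.167 CPM and was named after its value was seen. Germ cell markers summed to 5.95 to 6.55 CPM in control and 1.90 to 2.48 CPM with AA2P, PIWIL2 falling 6.12-fold and DDX4 staying within 3 to 7 reads.

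The remaining lists were low. Leydig cell markers summed to 5.58 to 5.89 and 6.46 to 7.53 CPM in control and AA2P libraries, with INSL3 and CYP17A1 at no more than 1 read each. Most of the sum was STAR, at 5.70 ± 0.131 and 6.68 ± 0.565 CPM (SD, n = 3). STAR was not called and was named after its value was seen. Endothelial markers summed to 2.30 to 3.53 and 6.53 to 8.82 CPM, PECAM1 rising 3.10-fold while EMCN had at most 2 reads. Macrophage and blood cell markers summed to 33.7 to 35.6 and 19.7 to 24.4 CPM, with ITGAM and CD14 falling 4.20-fold and 1.39-fold and CSF1R at no more than 2 reads. The part of these marker levels in the values of the regulators was not tested.

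**Figure D4:**
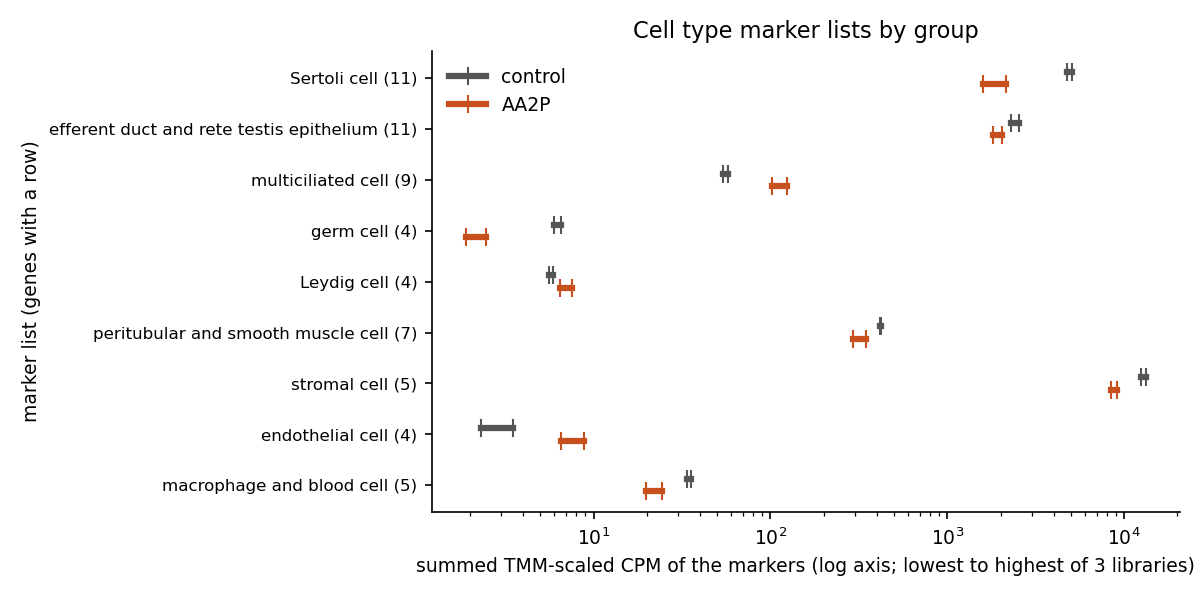
Summed TMM-scaled CPM of 9 cell type marker lists, on a log axis, from the lowest to the highest of the 3 libraries of each group; the number of genes with a row stands beside each list. The multiciliated list lies at 54.1 to 57.3 CPM in control and 102 to 124 CPM in AA2P libraries, and the Sertoli list at 4753 to 5077 and 1581 to 2160 CPM.

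Across the 6 libraries the profile of FOXJ1 was most like those of ADGRE5, REPIN1, ALDH4A1, CATIP and LZTS3, with Pearson correlations of log2 CPM between 0.998 and 0.999. CATIP is a ciliogenesis-associated protein that interacts with TTC17, and it rose 1.77-fold from 18.1 ± 1.15 CPM in control cells (SD, n = 3; adjusted p = 1.2e-07 by edgeR's quasi-likelihood test). ALDH4A1, a mitochondrial enzyme of proline breakdown, rose 2.18-fold, and ADGRE5, an adhesion receptor, rose 1.22-fold. These values describe 6 libraries in 2 groups, where 1189 of 10475 genes, or 11.4%, had a correlation with FOXJ1 above 0.95. Above 0.99 there were 168 genes, or 1.60%. Of the regulators, RFX2 had a correlation with FOXJ1 of 0.99, GMNC 0.99, TP73 0.94, RFX3 0.93, CCNO 0.88, MYB 0.82 and DEUP1 -0.55.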

How the data were processed

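RNA from 3 control and 3 AA2P libraries was sequenced on a HiSeq X-Ten, per the labels' protocols, and the submitters' processing notes name bcl2fastq and HISAT2 2.0.5. The deposited values are raw whole-number counts for each gene, from the authors; the counting tool, strand setting, annotation and build are not given in the sources used here. Symbols were found for 13141 of 17670 identifiers, from a table pairing Ensembl identifiers with symbols. Counts were fitted in R 4.3.3 with edgeR 4.0.16 (quasi-likelihood F test, TMM factors, filterByExpr by group, no block) and adjusted by Benjamini-Hochberg over the 12701 genes tested, at a threshold of 0.05. A standard error is the size of the log2 change divided by the root of its F. The procedure was tested on simulated data.

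The members and lists were chosen with earlier results of these data known. Named genes are the members, of each pathway list the 3 called genes of smallest p and the 2 called genes of largest change with at least 1 CPM in a group, up to 3 called markers per list, and the 5 genes most correlated with FOXJ1 (log2 CPM, prior count 2); some genes that this rule names are not reported here. List symbols were also matched through current and older names; a gene with no matched row was not analysed here. Alternatives were DESeq2 size factors, library totals, no filter, 1 CPM in 3 libraries, DESeq2 1.42.0 with its Wald test, voom in limma 3.58.1, a block for the replicate number, leaving out each library, and an adjusted p of 0.01. Chi-square per degree of freedom between replicates was 2.63 to 11.5, above sampling noise. Each library was counted once, but these values cannot tell separate cultures from separate preparations of 1 culture.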

Additional observations from a re-analysis of the deposited data

How the results depend on the processing

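Of the regulators, 6 or 7 were called higher and none lower under every alternative run, except with a filter of 1 CPM in 3 libraries, which kept 4 calls because GMNC and CCNO were no longer tested; the seventh was MYB with library totals and MCIDAS without a filter or without control library 1, control library 2 or AA2P library 1. Over all genes the calls numbered 6615, in a range of 5715 to 6875 with each library left out, and library totals gave 5727 higher and 1822 lower in place of 3302 and 3313. Library totals also moved the paralogs from 6 calls to 11. With each library left out, the centriole list gave 8 to 13 calls against 13, the lowest without control library 2. The cause of these differences was not tested. The motile cilium list gave 48 to 53 calls over all alternatives, at most 1 of them lower. With the replicate number as a block the regulators gave 6 calls, the motile cilium list 52 and all genes 6204. Correlations of the deviations of same-numbered libraries were -0.04, -0.02 and -0.06, and those of other pairs ran from -0.07 to 0.11. With 3 libraries per group these values cannot decide whether same-numbered libraries shared a source. Depth limits GMNC, MCIDAS, CCNO and DEUP1, whose values rest on 0 to 34 reads per library.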
